A study of Mus musculus with 12 samples.

Results

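Matricellular proteins are secreted into the extracellular matrix, where they alter how cells attach, migrate and respond to growth factors without forming the fibres themselves. The 10 genes followed here were listed by name as a protein class, with earlier results of these data known. They are 5 members of the CCN family (Ccn1 to Ccn5), 2 thrombospondins (Thbs1 and Thbs2), periostin (Postn), tenascin-C (Tnc) and Sparc, out of 35896 genes in the deposited tables. All 10 were found by symbol, and 9 passed the filter on low counts. Ccn5 did not.

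CCN proteins are built from modules that bind integrins, heparan sulfate proteoglycans and growth factors, and several of their genes respond within minutes to hours to mechanical load, YAP and TGF-beta. Thrombospondins restrain blood vessel growth and signal through CD47 and CD36, and thrombospondin-1 can release TGF-beta from its latent complex. Periostin, tenascin-C and SPARC act on collagen assembly and cell adhesion, and their genes are typically active in tissues under repair or remodelling, of which the cycling endometrium is an adult example.

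The data came from whole uteri of 12 wild-type female mice of the outbred Swiss Webster stock, aged 8 to 12 weeks, with no treatment named. There were 3 uteri in each of 4 estrous stages, and no other factor is named in the labels: proestrus (replicates 1, 2 and 3), estrus (3, 4 and 5), metestrus (5, 6 and 7) and diestrus (3, 4 and 5). The numbers are those of the sample titles, and the labels do not say how the stage of a mouse was determined. Expression was read by 3' TagSeq, which counts fragments near the 3' end of polyadenylated transcripts, and is given as CPM, counts scaled to a common library size, here with TMM factors.

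Library totals ran from 1652841 to 2200563 estimated counts, so that a count of 3 stood for 1.37 to 1.83 CPM. Correlations of log2 CPM between uteri of a stage were 0.939 to 0.957 in proestrus, estrus and diestrus and 0.897 to 0.910 in metestrus. The tissue label was checked against Esr1, Pgr, Hoxa10 and Hoxa11, whose summed level was 401.5 to 957 CPM in the 12 uteri. Of 3 ovary markers, Fshr was at 0 in every library and Amh was at 0.305 CPM on average in estrus and 0 in the other stages. The third, Star, was at 16.1, 11.2, 14.8 and 11.3 CPM on average from proestrus to diestrus. In metestrus replicate 5 the summed level of 6 stromal markers was 4123 CPM, against 7242 and 7128 CPM in metestrus replicates 6 and 7. In bulk tissue, fewer cells of a type and less RNA per cell cannot be told apart.

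Promoter sequence was at hand for 5 of the 10 genes, as the RefSeq start sites of the GRCm38.p6 assembly. The 250 bases before the start are shown for the 4 of them that differed between at least 1 pair of stages, so that genes with different courses over the cycle can be read side by side. The sequences run 5′ to 3′ on the strand of the gene. Capitals mark matches, on either strand, to the TATA box (TATAAA, or TTTATA read from the other strand) and the core of the TEAD site (GGAATG, or CATTCC read from the other strand). For Postn and Tnc, which have 2 entries each, the start site nearest to the GENCODE gene start was used.
Postn, chr3:54360857-54361106, plus strand: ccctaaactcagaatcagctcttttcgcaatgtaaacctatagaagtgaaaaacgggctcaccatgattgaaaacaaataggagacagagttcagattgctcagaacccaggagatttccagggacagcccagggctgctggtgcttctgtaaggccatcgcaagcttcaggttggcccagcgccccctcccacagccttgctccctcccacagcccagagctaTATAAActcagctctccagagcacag
Ccn1, chr3:145649986-145650235, minus strand: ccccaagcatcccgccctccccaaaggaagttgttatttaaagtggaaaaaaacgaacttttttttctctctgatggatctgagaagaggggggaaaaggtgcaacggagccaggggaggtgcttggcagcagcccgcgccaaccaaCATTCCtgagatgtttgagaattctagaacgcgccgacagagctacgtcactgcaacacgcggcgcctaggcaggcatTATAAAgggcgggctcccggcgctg
Tnc, chr4:64047016-64047265, minus strand: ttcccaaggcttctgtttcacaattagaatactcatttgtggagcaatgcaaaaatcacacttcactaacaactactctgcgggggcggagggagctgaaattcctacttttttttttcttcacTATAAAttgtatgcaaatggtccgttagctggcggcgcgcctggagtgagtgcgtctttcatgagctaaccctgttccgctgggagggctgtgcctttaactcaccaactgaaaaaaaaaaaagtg
Thbs2, chr17:14694263-14694512, minus strand: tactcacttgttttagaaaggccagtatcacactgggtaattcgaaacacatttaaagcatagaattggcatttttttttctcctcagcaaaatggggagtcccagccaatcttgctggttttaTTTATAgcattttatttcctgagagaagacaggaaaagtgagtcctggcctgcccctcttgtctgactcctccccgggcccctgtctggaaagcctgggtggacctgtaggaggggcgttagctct
The Postn and Ccn1 windows held TATAAA 26 and 25 bases before the start. Those of Tnc and Thbs2 held it 126 bases before the start, in Thbs2 on the opposite strand. Among all 32851 promoter windows of the same length, 12.4% held TATAAA. The GGAATG core was found only in the Ccn1 window of the 4 shown, 103 bases before the start on the opposite strand, and in 12.6% of all windows. Searches of the same windows for the AP-1 site TGANTCA, held by 6.75% of all windows, and for the CArG box, held by 1.47%, gave no match in the 4, which says only that these letters are not in these windows. The motifs do not overlap one another, and a match is a description of the sequence.

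The 9 genes tested did not share 1 course over the cycle. Ccn3 and Postn were higher in each estrus uterus than in any uterus of another stage, Ccn2, Thbs1 and Thbs2 were lowest in proestrus, Ccn4 was lowest in estrus, and Tnc was highest in diestrus on average. How many of all genes tested have a stage set apart from the other 9 uteri was not counted. Over the 4 stages, 3 of the 9 differed (Ccn3, Postn and Tnc), where 23.2% of the 12052 genes tested did (F test of edgeR's quasi-likelihood model, with p-values adjusted after Benjamini and Hochberg and called under 0.05). Another 4 of the 9 had an unadjusted p under 0.05 in that test (Ccn2, Ccn4, Thbs1 and Thbs2), a level that 37.5% of all genes passed.

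Between proestrus and estrus 5 of the 9 genes rose and 0 fell, where 17.1% of all genes tested changed in either direction. The 5 were Ccn2, Ccn3, Thbs1, Thbs2 and Postn. The median log2 fold change of the 9 genes was 1.52, against 0.016 over all genes tested. From estrus to metestrus 3 of the 9 changed against a background of 7.56%: Ccn3 and Postn fell and Ccn4 rose. From metestrus to diestrus 0 of the 9 changed by edgeR, where 0.224% of all genes did. At an unadjusted p under 0.05 there were 3 (Ccn1, Ccn3 and Postn), against 11.3% of all genes. DESeq2 called 1 (Ccn3) against 1.33% of all genes, and limma-voom 0 against 0.116%.

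From diestrus to proestrus 1 of the 9 fell, Tnc, against a background of 8.53%, a share near that of all genes. Diestrus and estrus, which are not adjacent, differed in 5 of the 9 against a background of 22.8%: Ccn1, Ccn3 and Postn were lower in diestrus and Ccn4 and Tnc were higher. Metestrus and proestrus differed in 0 of the 9 by edgeR, with a background of 4.31%. At an unadjusted p under 0.05 there were 6 of the 9, against 21% of all genes. DESeq2 called 4 (Ccn2, Thbs2, Postn and Tnc) against 5.64% of all genes, and limma-voom 0 against 3.14%. Comparisons that share a stage share its 3 uteri, and the shares are descriptions.

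**Figure D1:**
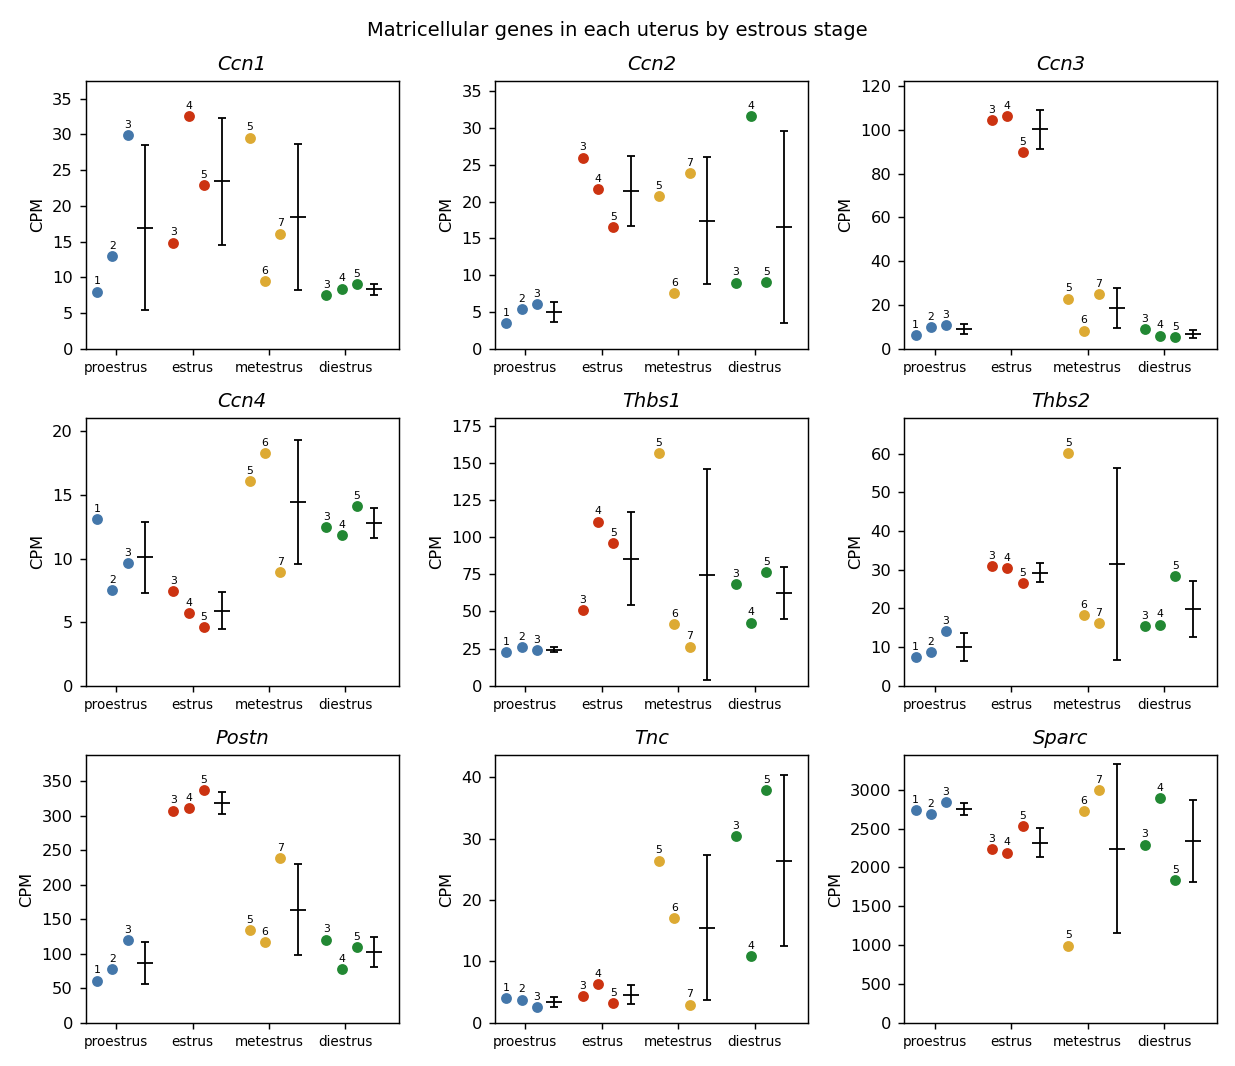
CPM of the 9 tested genes in each uterus, with 1 panel per gene and a linear axis from 0; points are uteri labelled with their replicate number, and the black mark with bars is the mean ± SD of the 3 uteri of a stage. The estrus points of Ccn3 (89.8 to 106 CPM) and Postn (307 to 337 CPM) lie above all points of the other stages, and metestrus replicate 5 stands alone in Thbs1 (157 CPM), Thbs2 (60.2 CPM) and Sparc (995 CPM).

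**Figure D2:**
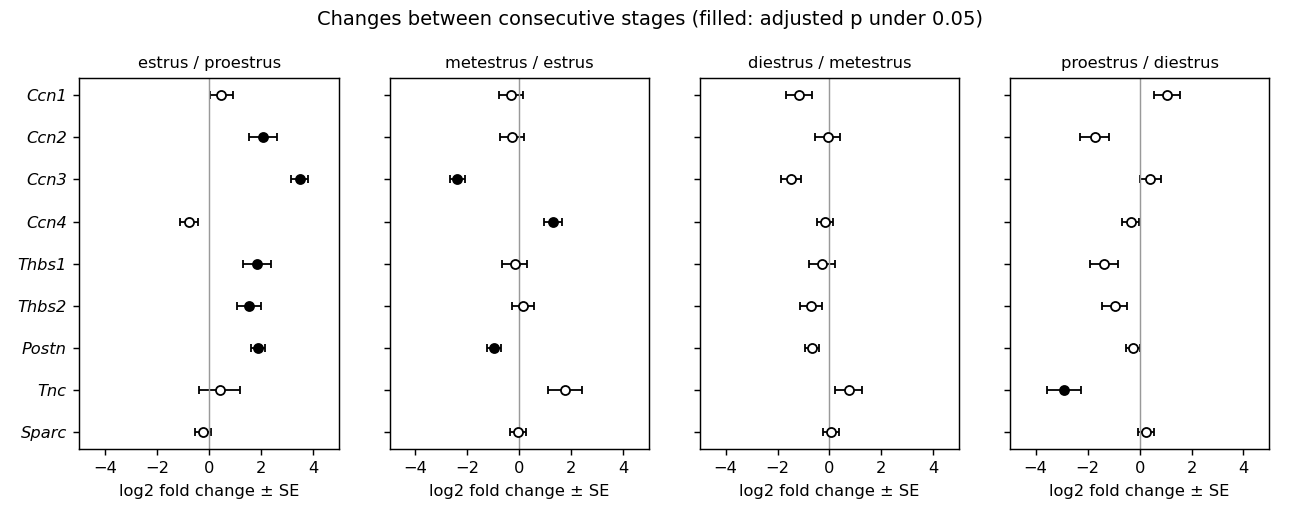
Log2 fold change ± SE of the 9 tested genes between consecutive stages, from the edgeR model of all 12 uteri. The SE was derived from the F statistic of each comparison, and filled points have an adjusted p under 0.05. Filled points number 5 for estrus over proestrus, 3 for metestrus over estrus, 0 for diestrus over metestrus and 1 for proestrus over diestrus.

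Among the CCN genes, Ccn3 had the largest fold changes called, all of them up to or down from estrus. Ccn3, formerly Nov, encodes a CCN protein that counteracts CCN2 in several models of fibrosis (ENSMUSG00000037362, GRCm38 chromosome 15, 54745702 to 54754039). It was at 6.28, 9.70 and 10.7 CPM in proestrus replicates 1 to 3 and at 104.5, 106 and 89.8 CPM in estrus replicates 3 to 5. It was at 22.8, 8.21 and 25.0 CPM in metestrus replicates 5 to 7 and at 8.97, 5.93 and 5.09 CPM in diestrus replicates 3 to 5. All 3 estrus uteri lay above the other 9, none of which passed 25.0 CPM, whereas the ranges of proestrus, metestrus and diestrus overlapped. The order of the stage means was estrus, metestrus, proestrus, diestrus, in which only estrus was apart from its neighbour beyond their spread. The means were 8.88 ± 2.31 CPM in proestrus, 100.2 ± 9.11 in estrus, 6.67 ± 2.04 in diestrus and 18.7 ± 9.15 in metestrus (SD over 3 uteri).

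Ccn3 rose 11.1-fold from proestrus to estrus (log2 fold change 3.48 ± 0.32 SE, edgeR adjusted p = 6.74e-05). It then fell 5.29-fold from estrus to metestrus (log2 fold change -2.40 ± 0.29 SE, edgeR adjusted p = 0.000418). Diestrus was 14.8-fold below estrus (log2 fold change -3.89 ± 0.33 SE, edgeR adjusted p = 1.1e-05). The F test over the stages gave an adjusted p of 1.1e-05, and leaving out any 1 uterus gave 1.07e-06 to 0.000116. The step from metestrus to diestrus was -1.48 ± 0.37 on the log2 scale and missed the threshold (edgeR adjusted p = 0.122). Without metestrus replicate 6, whose 8.21 CPM lay in the range of proestrus and diestrus, it was -1.82 with an adjusted p of 0.00765, and metestrus over proestrus became 1.42 with an adjusted p of 0.006. The step to diestrus also passed with DESeq2 (0.02) and without a filter (0.0089), but not with limma-voom. Metestrus over proestrus also passed without a filter (0.0357).

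Ccn2, formerly Ctgf, encodes connective tissue growth factor, which drives matrix production and is a standard target of YAP and TGF-beta (ENSMUSG00000019997, chromosome 10, 24595442 to 24598683). It was at 3.42, 5.39 and 6.09 CPM in proestrus replicates 1 to 3 and at 26.0, 21.7 and 16.5 CPM in estrus replicates 3 to 5. It was at 20.75, 7.575 and 23.85 CPM in metestrus replicates 5 to 7 and at 8.97, 31.6 and 9.06 CPM in diestrus replicates 3 to 5. All 3 proestrus uteri lay below the other 9, whose lowest was 7.575 CPM, and the ranges of estrus, metestrus and diestrus overlapped. The order of the means was estrus (21.4 ± 4.76 CPM), metestrus (17.4 ± 8.64), diestrus and proestrus (4.97 ± 1.38), and only proestrus was apart from its neighbour. Diestrus replicate 4 held the highest value of all 12, and the diestrus mean of 16.6 ± 13.1 CPM (SD, n = 3) was 9.015 CPM without it.

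From proestrus to estrus Ccn2 rose 4.20-fold (log2 fold change 2.07 ± 0.55 SE, edgeR adjusted p = 0.0208). No call was made without proestrus replicate 1 (adjusted p = 0.0792), 2 (0.0563) or 3 (0.0561) or without estrus replicate 3 (0.063) or 4 (0.0571), nor with limma-voom (0.0511) or counts scaled from TPM (0.0568). Proestrus against diestrus was -1.72 ± 0.56 on the log2 scale (edgeR adjusted p = 0.075), and 0.0446 without metestrus replicate 6. Metestrus against proestrus was 1.79 ± 0.56 (edgeR adjusted p = 0.0843), 0.0243 without metestrus replicate 6 and 0.0335 without diestrus replicate 4. The F test gave 0.0548, and 0.0227 without metestrus replicate 6 and 0.0465, 0.0128 and 0.0486 without diestrus replicates 3, 4 and 5. It passed in 3 of 8 other alternatives, DESeq2 (0.012) and no filter (0.00348) among them, and missed with limma-voom (0.125). DESeq2 and no filter also called proestrus against diestrus (0.0292 and 0.00934) and metestrus against proestrus (0.0315 and 0.0107). Limma-voom called neither. The exons of Ccn2 overlap Gm15270, which is not among the genes of the deposited tables, on the opposite strand over 23.2% of their bases. The use of strand is not given in the sources used here, so whether reads of the 2 genes were told apart there is not known.

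Ccn1, formerly Cyr61, encodes an integrin ligand and is an immediate early gene (ENSMUSG00000028195, chromosome 3, 145646976 to 145649981). It was at 7.99, 12.9 and 29.9 CPM in proestrus replicates 1 to 3 and at 14.85, 32.6 and 22.9 CPM in estrus replicates 3 to 5. It was at 29.6, 9.47 and 16.1 CPM in metestrus replicates 5 to 7 and at 7.48, 8.40 and 9.06 CPM in diestrus replicates 3 to 5. Uteri of proestrus, estrus and metestrus were spread over most of the range, and those of diestrus were close together at its lower end and below all of estrus and metestrus. The means were 23.45 ± 8.89 CPM in estrus, 18.4 ± 10.2 in metestrus, 17.0 ± 11.5 in proestrus and 8.31 ± 0.793 in diestrus (SD, n = 3 each), and neighbours in that order overlapped. Leaving out proestrus replicate 3 moved the proestrus mean to 10.46 CPM.

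Ccn1 was 2.82-fold lower in diestrus than in estrus (log2 fold change -1.50 ± 0.49 SE, edgeR adjusted p = 0.042). No call was made without proestrus replicate 2 (adjusted p = 0.0508), estrus replicate 4 (0.166) or 5 (0.092), or diestrus replicate 3 (0.116), 4 (0.105) or 5 (0.0891), nor with limma-voom (0.0639), library totals (0.056), counts scaled from TPM (0.067) or protein-coding transcripts (0.0518). The F test gave an adjusted p of 0.145. It passed in 2 of 8 other alternatives, no filter (0.0394) among them, and missed with DESeq2 (0.114). The Ccn1 promoter shown above is the 1 window with both a TATA box near the start and a TEAD core.

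Ccn4, formerly Wisp1, was first known as a gene induced by WNT1 (ENSMUSG00000005124, chromosome 15, 66891320 to 66923201). It was at 13.1, 7.55 and 9.64 CPM in proestrus replicates 1 to 3 and at 7.42, 5.72 and 4.58 CPM in estrus replicates 3 to 5. It was at 16.1, 18.3 and 8.94 CPM in metestrus replicates 5 to 7 and at 12.5, 11.9 and 14.15 CPM in diestrus replicates 3 to 5. Estrus was below the other 9 uteri, with a gap of 7.42 to 7.55 CPM that is narrower than the spread within estrus. The means were 14.4 ± 4.89 CPM in metestrus, 12.8 ± 1.185 in diestrus, 10.1 ± 2.815 in proestrus and 5.91 ± 1.43 in estrus (SD, n = 3 each), and the ranges of the first 3 in that order overlapped. Ccn4 was thus lowest in the stage in which Ccn3 was highest.

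Ccn4 rose 2.46-fold from estrus to metestrus (log2 fold change 1.30 ± 0.34 SE, edgeR adjusted p = 0.0364), and was 2.18-fold higher in diestrus than in estrus (log2 fold change 1.13 ± 0.34 SE, edgeR adjusted p = 0.0307). The first call ended without proestrus replicate 3 (adjusted p = 0.0512), estrus replicate 3 (0.0546), 4 (0.0934) or 5 (0.135), metestrus replicate 5 (0.0655) or 6 (0.114) or diestrus replicate 3 (0.0534), with limma-voom (0.0583), protein-coding transcripts (0.0867) and only the 2 stages (0.106). The second was lost without estrus replicate 4 (0.0715) or 5 (0.115) or diestrus replicate 3 (0.0663), 4 (0.0512) or 5 (0.0858), and with protein-coding transcripts (0.23). The F test gave an adjusted p of 0.0501, and 0.0143 without metestrus replicate 7. It passed in 3 of 7 other alternatives, no filter (0.0436) and median-of-ratios factors (0.0485) among them, and missed with DESeq2 (0.0616). Counts of Ccn4 were few, 10 to 31 in a library and 237 in all, and 25.6% of them were assigned to a transcript annotated for nonsense-mediated decay.

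Ccn5, formerly Wisp2, encodes the CCN protein that lacks the C-terminal cystine knot of its relatives (ENSMUSG00000027656, chromosome 2, 163820861 to 163833146). It had 3 counts over all 12 libraries, 1 each in proestrus replicate 3, estrus replicate 3 and metestrus replicate 5, and 0 in the other 9. A count of 0 allows up to 1.37 to 1.83 CPM in a library, for counting error only. No difference between stages was detectable for Ccn5 at this depth.

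In each of Thbs1 and Thbs2, the 2 thrombospondin genes, all 3 proestrus uteri lay below the other 9, and both rose from proestrus to estrus. The share of all genes with such a separation was not counted, so it is not a trait shown to be particular to them. Thbs1 encodes the trimeric glycoprotein thrombospondin-1, which is also stored in platelets (ENSMUSG00000040152, chromosome 2, 118111876 to 118127133). It was at 22.8, 25.9 and 23.85 CPM in proestrus replicates 1 to 3 and at 50.7, 110.4 and 95.7 CPM in estrus replicates 3 to 5. It was at 157, 41.7 and 26.2 CPM in metestrus replicates 5 to 7 and at 68.3, 42.5 and 76.4 CPM in diestrus replicates 3 to 5. Proestrus was tight and low, with metestrus replicate 7 just above it, and metestrus spanned nearly the whole range. The means were 85.6 ± 31.1 CPM in estrus, 62.4 ± 17.7 in diestrus and 24.2 ± 1.555 in proestrus (SD, n = 3 each), with metestrus between estrus and diestrus, and the ranges of those 3 stages overlapped.

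Thbs1 rose 3.54-fold from proestrus to estrus (log2 fold change 1.83 ± 0.53 SE, edgeR adjusted p = 0.0302). Fits that made no such call were those without proestrus replicate 1 (adjusted p = 0.094), 2 (0.0759) or 3 (0.0959) or estrus replicate 4 (0.108) or 5 (0.0877), and that with counts scaled from TPM (0.0752). The metestrus mean was 74.8 ± 71.3 CPM (SD, n = 3), and 33.95 CPM without metestrus replicate 5. Without that uterus, metestrus against estrus was -1.34 on the log2 scale (edgeR adjusted p = 0.0187, against 0.857 with it), proestrus against diestrus was -1.36 (adjusted p = 0.00934, against 0.145) and the F test gave 0.00174 against 0.08. Diestrus against metestrus turned from -0.28 to 0.88 (edgeR adjusted p = 0.879 and 0.341). The F test also passed without metestrus replicate 6 (0.049) or 7 (0.0165), and metestrus over proestrus, 1.64 ± 0.53 with an adjusted p of 0.0943, passed without metestrus replicate 6 (0.0417) or 7 (0.0383). In 2 of 9 other alternatives the F test passed, no filter (0.00164) among them, and it missed with DESeq2 (0.104). No filter also called metestrus over proestrus (0.00363) and proestrus against diestrus (0.0138). The latter passed with only the 2 stages too (0.00164). Exons of Thbs1 overlap Gm29233, which is not among the genes of the deposited tables, on the opposite strand over 3.425% of their bases. With the use of strand not given, whether reads of the 2 were told apart there is not known.

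Thbs2 encodes thrombospondin-2, a product of fibroblasts that restrains vessel growth and, unlike thrombospondin-1, does not activate TGF-beta (ENSMUSG00000023885, chromosome 17, 14665500 to 14694235). It was at 7.415, 8.625 and 14.2 CPM in proestrus replicates 1 to 3 and at 30.9, 30.3 and 26.6 CPM in estrus replicates 3 to 5. It was at 60.2, 18.3 and 16.1 CPM in metestrus replicates 5 to 7 and at 15.5, 15.8 and 28.3 CPM in diestrus replicates 3 to 5. As in Thbs1, metestrus replicate 5 was the highest of the 12 uteri. The means were 29.3 ± 2.36 CPM in estrus, 19.9 ± 7.31 in diestrus and 10.1 ± 3.62 in proestrus (SD, n = 3 each), and metestrus overlapped both estrus and diestrus.

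Thbs2 rose 2.86-fold from proestrus to estrus (log2 fold change 1.52 ± 0.47 SE, edgeR adjusted p = 0.041). Leaving out proestrus replicate 1 ended the call (adjusted p = 0.133), as did leaving out proestrus replicate 2 (0.116) or 3 (0.0583), estrus replicate 3 (0.0927), 4 (0.104) or 5 (0.0823) or diestrus replicate 3 (0.0513) or 4 (0.0515), and the use of limma-voom (0.0504), library totals (0.0554) or protein-coding transcripts (0.0544). The metestrus mean was 31.5 ± 24.8 CPM (SD, n = 3), and 17.2 CPM without metestrus replicate 5. Metestrus against estrus turned from 0.13 to -0.76 on the log2 scale without that uterus (edgeR adjusted p = 0.881 and 0.135), and diestrus against metestrus from -0.70 to 0.20 (0.576 and 0.869). The F test gave an adjusted p of 0.0632, and 0.00973, 0.0312 and 0.0196 without metestrus replicates 5, 6 and 7. It passed in 3 of 7 other alternatives, DESeq2 (0.0194) and no filter (0.0038) among them, and missed with limma-voom (0.104). Metestrus against proestrus was 1.65 ± 0.47 on the log2 scale (edgeR adjusted p = 0.065), and passed without metestrus replicate 6 (0.0233) or 7 (0.0387). It also passed with DESeq2 (0.0176) and without a filter (0.00344), but not with limma-voom.

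Of the adhesion and collagen-binding proteins, periostin also peaked in estrus. Postn encodes periostin, an integrin ligand secreted by fibroblasts that supports collagen cross-linking (ENSMUSG00000027750, chromosome 3, 54361109 to 54391037). It was at 61.0, 77.6 and 119.8 CPM in proestrus replicates 1 to 3 and at 307, 311 and 337 CPM in estrus replicates 3 to 5. It was at 135, 117 and 239 CPM in metestrus replicates 5 to 7 and at 121, 78.1 and 109 CPM in diestrus replicates 3 to 5. All 3 estrus uteri lay above the other 9, of which metestrus replicate 7 came nearest, and proestrus and diestrus overlapped. The means were 319 ± 16.15 CPM in estrus, 164 ± 65.8 in metestrus, 103 ± 22.0 in diestrus and 86.1 ± 30.3 in proestrus (SD, n = 3 each), and neighbours below estrus in that order overlapped.

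Postn rose 3.69-fold from proestrus to estrus (log2 fold change 1.88 ± 0.28 SE, edgeR adjusted p = 0.00106), and diestrus was 3.10-fold below estrus (log2 fold change -1.63 ± 0.28 SE, edgeR adjusted p = 0.0011). Both calls and that of the F test (adjusted p = 0.000906) were made in every fit that left out 1 uterus and in every other alternative run. From estrus to metestrus Postn fell 1.95-fold (log2 fold change -0.96 ± 0.27 SE, edgeR adjusted p = 0.0465), a call near the threshold. It was lost without proestrus replicate 2 (adjusted p = 0.0636), estrus replicate 3 (0.0959), 4 (0.116) or 5 (0.133), metestrus replicate 5 (0.0839) or 6 (0.162) or diestrus replicate 3 (0.0598), 4 (0.0521) or 5 (0.0621), and with counts scaled from TPM (0.0806), protein-coding transcripts (0.0626) and only the 2 stages (0.0922). Metestrus against proestrus was 0.92 ± 0.28 (edgeR adjusted p = 0.0766), and 0.0271 without metestrus replicate 6. It passed with DESeq2 (0.029) and without a filter (0.00859), but not with limma-voom.

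Tnc was high where Postn was not, in the uteri of diestrus and part of metestrus. It encodes tenascin-C, a large multi-armed glycoprotein that loosens cell adhesion and is induced in wounds (ENSMUSG00000028364, chromosome 4, 63959785 to 64047015). It was at 3.99, 3.77 and 2.54 CPM in proestrus replicates 1 to 3 and at 4.33, 6.29 and 3.21 CPM in estrus replicates 3 to 5. It was at 26.45, 17.0 and 2.98 CPM in metestrus replicates 5 to 7 and at 30.4, 10.9 and 37.9 CPM in diestrus replicates 3 to 5. All diestrus uteri lay above all of proestrus and estrus, and metestrus was split, with replicates 5 and 6 at levels within the diestrus range and replicate 7 at that of proestrus. The means were 26.4 ± 14.0 CPM in diestrus, 15.5 ± 11.8 in metestrus, 4.61 ± 1.56 in estrus and 3.435 ± 0.785 in proestrus (SD, n = 3 each), and each overlapped its neighbour in that order. Leaving out metestrus replicate 5 moved the metestrus mean to 10.01 CPM.

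Tnc was 5.71-fold higher in diestrus than in estrus (log2 fold change 2.51 ± 0.62 SE, edgeR adjusted p = 0.0105) and fell 7.56-fold from diestrus to proestrus (log2 fold change -2.92 ± 0.65 SE, edgeR adjusted p = 0.0125). The first call was lost without estrus replicate 5 (adjusted p = 0.0531) and with limma-voom (0.0642), and the second without proestrus replicate 2 (0.0547) or 3 (0.0605) or diestrus replicate 5 (0.0513) and with limma-voom (0.115). Metestrus over estrus was 1.77 ± 0.65 on the log2 scale (edgeR adjusted p = 0.112). Without metestrus replicate 7 it was 2.28 with an adjusted p of 0.0178, and metestrus over proestrus, 2.18 ± 0.68 with an adjusted p of 0.0839, became 2.67 with an adjusted p of 0.0268. Without a filter both passed (0.0227 and 0.00837). With DESeq2 metestrus over proestrus passed (0.0273), and with limma-voom it did not. The F test gave an adjusted p of 0.00955, a call lost with limma-voom alone among the alternatives in which Tnc was tested, which a minimum mean of 50 counts and counts scaled from TPM were not. Counts of Tnc were few, 5 to 67 in a library. Its exons overlap 8030451A03Rik, which is not among the genes of the deposited tables, on the opposite strand over 2.265% of their bases. Whether reads of the 2 were told apart there is not known, since the use of strand is not given.

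Sparc, also called osteonectin, encodes a collagen-binding glycoprotein needed for the assembly of fibrillar collagen (ENSMUSG00000018593, chromosome 11, 55394500 to 55423183). It was at 2736, 2686 and 2842 CPM in proestrus replicates 1 to 3 and at 2237, 2192 and 2532 CPM in estrus replicates 3 to 5. It was at 995 CPM in metestrus replicate 5, against 2729 and 2995 CPM in metestrus replicates 6 and 7. It was at 2293, 2892 and 1833 CPM in diestrus replicates 3 to 5. The estrus uteri were below all 3 of proestrus, and metestrus replicate 5 was the lowest of the 12. The means were 2755 ± 80.1 CPM in proestrus, 2339 ± 531 in diestrus, 2320 ± 185 in estrus and 2240 ± 1086 in metestrus (SD, n = 3 each), and each overlapped its neighbour in that order. Without metestrus replicate 5 the metestrus mean was 2862 CPM, the highest of the 4 stages rather than the lowest.

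No comparison of Sparc passed the test. Estrus against proestrus was -0.25 ± 0.30 on the log2 scale (edgeR adjusted p = 0.62). Without metestrus replicate 5, metestrus against estrus turned from -0.05 to 0.30 (edgeR adjusted p = 0.94 and 0.276), diestrus against metestrus from 0.06 to -0.29 (0.966 and 0.569) and metestrus against proestrus from -0.30 to 0.05 (0.621 and 0.9). Over the stages the F test gave an adjusted p of 0.82, and 0.307 to 0.911 when any 1 uterus was left out, with the lowest of these without metestrus replicate 5. Counting error was small, with 1919 to 5851 counts in a library. The deposited estimates assigned 23.8% to 31.7% of the Sparc counts of a library to a transcript annotated as a retained intron.

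**Figure D3:**
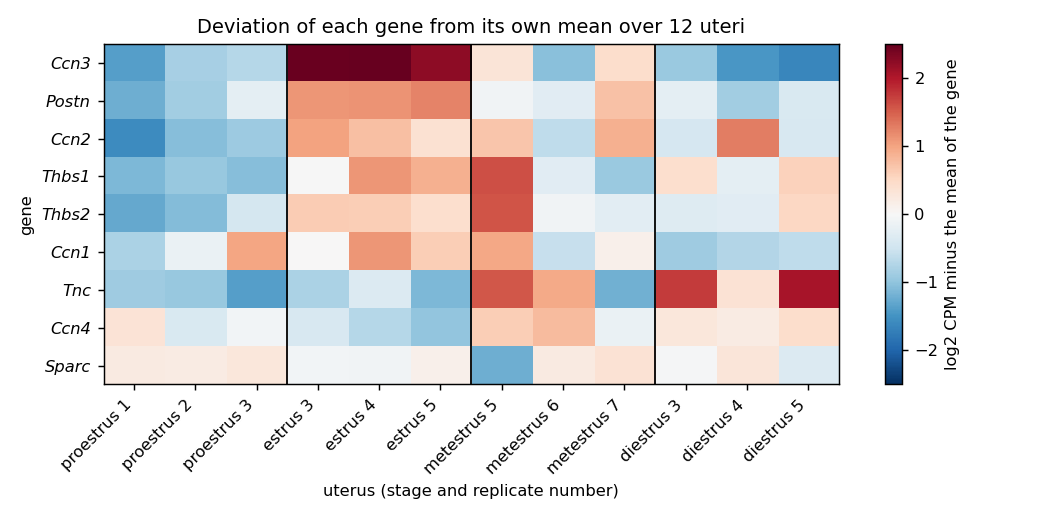
Deviation of log2 CPM (prior count 2) of each tested gene from its own mean over the 12 uteri; columns are uteri in stage order, vertical lines separate stages, and red is above and blue below the mean of the gene. The Ccn3 row reaches 2.25 to 2.49 in estrus, the Tnc row reaches 2.06 in diestrus replicate 5, and metestrus replicate 5 is at 1.57 for Thbs2 and at -1.23 for Sparc.

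The genes nearest in pattern to Ccn3, Postn and Tnc were sought among 9439 tested genes with a mean of at least 10 CPM, by the mean absolute difference of log2 CPM deviations over the 12 uteri. For Ccn3 they were Pla1a (0.398), Cp (0.402) and Prom1 (0.427), where the median gene differed from Ccn3 by 1.34. Cp, which encodes ceruloplasmin, was at 88.4, 476, 80.2 and 38.1 CPM in proestrus, estrus, metestrus and diestrus on average. For Postn they were Ighm (0.195), Fcrls (0.221) and Ctsc (0.221), with a median of 0.737 over the genes compared. Ighm, the immunoglobulin mu heavy chain, was at 27.9, 80.6, 49.1 and 37.2 CPM in the same order. For Tnc they were Ntm (0.362), Plat (0.409) and Fam155a (0.514), with a median of 1.12, and Plat, the tissue plasminogen activator, was at 35.1, 33.1, 97.4 and 104 CPM. The neighbours were ranked on the same 12 uteri, and the distances carry no test.

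**Figure D4:**
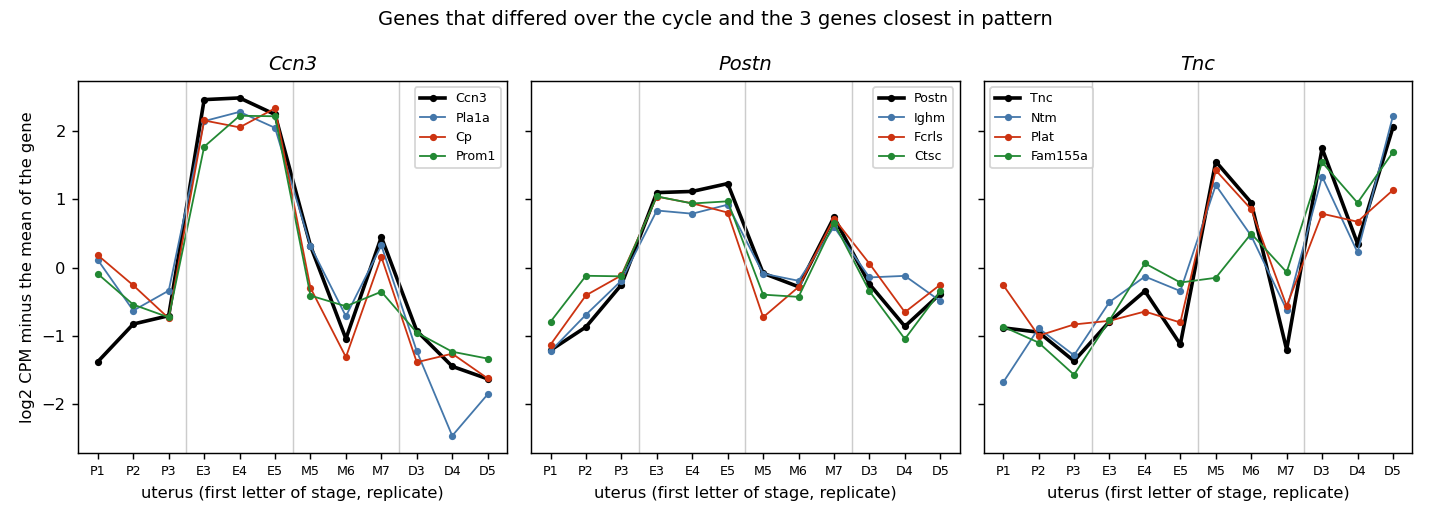
Log2 CPM minus the mean of the gene for Ccn3, Postn and Tnc (thick black) and the 3 genes nearest to each (colours) in the 12 uteri, named by the first letter of the stage and the replicate number; lines join uteri only as a guide to the eye, since replicates have no order. The estrus uteri form the plateau of Ccn3 and Postn, and Tnc and 2 of its neighbours, Ntm and Plat, lie below their means at metestrus replicate 7.

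Cell type markers moved with some of these genes. The summed level of 5 macrophage markers was 172 to 215 CPM in proestrus, 394 to 432 in estrus, 249 to 390 in metestrus and 244 to 325 in diestrus, and 4 of the 5 differed over the stages by the F test. It was thus highest in the estrus uteri, as Ccn3 and Postn were, and its part in their rise was not tested. The 6 smooth muscle markers summed to 6204 to 8771 CPM in proestrus, 8229 to 10590 in estrus, 5201 to 7340 in metestrus and 6142 to 6454 in diestrus (3 of 6 differed). The 6 stromal markers summed to 6431 to 6644, 5726 to 6368, 4123 to 7242 and 4224 to 5527 CPM in the same order (2 of 6 differed, Pdgfra and Dcn). That sum hides opposite courses. From proestrus to estrus the mean rose for Pdgfra (46.2 to 135 CPM), Pdgfrb (30.6 to 59.8), Vim (477 to 810) and Dcn (2480 to 3400). It fell for Col1a1 (3240 to 1550 CPM) and Lum (270 to 188). The part of stromal cells in the courses of the 9 genes was not tested.

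The 6 epithelial markers summed to 1131 to 1491 CPM in proestrus, 1137 to 1428 in estrus, 463 to 934 in metestrus and 461 to 643.5 in diestrus, and all 6 differed. The low stages of the sum were those in which Tnc was high in 5 of 6 uteri. Not all 6 markers followed the sum. Cldn4 was lowest in proestrus, at 1.83 CPM on average against 7.49 in metestrus and 5.81 in diestrus. Krt18 was at 175 CPM in proestrus and 171 in metestrus. The part of epithelial cells in the Tnc result was not tested. The 3 pericyte markers summed to 189 to 212, 242.5 to 267, 290.5 to 346 and 329 to 401 CPM from proestrus to diestrus (1 of 3 differed). The 5 platelet markers, listed because platelets carry thrombospondin-1, summed to 28.5 to 39.1, 39.5 to 45.8, 22.3 to 38.5 and 28.9 to 41.5 CPM, with 0 of 3 tested genes differing and Ppbp at 0 in every library.

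The 6 endothelial markers summed to 1261 to 2039 CPM over the 12 uteri and 0 of 6 differed. Most of that sum was Pecam1, with means of 1420, 1600, 1490 and 1200 CPM from proestrus to diestrus. Cdh5, Kdr, Emcn, Tek and Tie1 had means of at most 56.7 CPM, each highest in metestrus. The remaining lists were at lower levels. Neutrophil markers summed to 4.58 to 58.3 CPM (1 of 3 tested differed) and mesothelial to 56.3 to 106 (1 of 3). Oviduct markers summed to 5.44 to 50.1 CPM (1 of 1, Ovgp1) and ovary markers to 7.33 to 23.99 (0 of 1, Star). Eosinophil and adipocyte markers did not exceed 6.79 and 3.16 CPM, with Epx at 0. The oviduct sum was 39.8 to 50.1 CPM in estrus and 5.44 to 28.4 in the other stages. It was nearly all Ovgp1, at 14.5, 44.8, 14.4 and 17.7 CPM on average from proestrus to diestrus. Foxj1, the ciliated cell gene of the list, did not rise in estrus, at 1.04, 0.412, 0.173 and 0 CPM in the same order. The part of oviduct tissue in the estrus peaks of Ccn3 and Postn was not tested.

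Of 16 other matricellular genes listed, 9 were tested and 5 differed over the stages, where 23.2% of all genes did. From diestrus to proestrus 4 fell and 0 rose, where 8.53% of all genes changed, with a median log2 fold change of -0.98 against -0.00028 over all genes. Sparcl1, the closest relative of Sparc in the list, rose from 597 ± 7.93 CPM in proestrus to 1570 ± 69.9 in estrus (SD, n = 3 each; edgeR adjusted p = 0.00127), unlike Sparc, for which no change was called, although the difference between the 2 genes was not tested. Spp1, which encodes the integrin ligand osteopontin, rose from 15.5 ± 8.37 to 141 ± 89.1 CPM over the same step (edgeR adjusted p = 0.00226) and fell to 10.1 ± 6.63 in metestrus (0.00216). Tgfbi, which encodes a relative of periostin, did not peak in estrus: it was at 43.4 ± 9.89 CPM in proestrus, 77.1 ± 0.891 in estrus, 180 ± 68.8 in metestrus and 166 ± 38.7 in diestrus, and rose from estrus to metestrus (edgeR adjusted p = 0.0161). Smoc2, another relative of Sparc, was at 88.9 ± 24.0 CPM in proestrus and 240 ± 52.7 in diestrus (edgeR adjusted p = 0.00425).

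All 20 listed receptors and partners of these proteins were tested, and 7 differed over the stages, against 23.2% of all genes. From proestrus to estrus 5 rose and 0 fell, against 17.1% of all genes in either direction, with a median of 0.43 against 0.016 over all genes. Cd47, the receptor of thrombospondin-1, rose from 195 ± 15.9 to 372 ± 58.7 CPM (SD, n = 3 each; edgeR adjusted p = 0.0026), and Itgav, the integrin alpha chain that binds periostin and CCN proteins, from 31.5 ± 4.39 to 53.8 ± 13.0 CPM (0.0251). Both fell from estrus to metestrus (adjusted p = 0.0069 and 0.0395). Itga6, which pairs with beta chains to bind CCN proteins and laminin, was at 196 ± 22.6 CPM in estrus and fell to 110 ± 17.3 in metestrus (0.0123), and Itgam, a chain of the leukocyte integrin that binds CCN1, was at 24.4 ± 10.8 CPM in estrus and 2.69 ± 1.35 in diestrus (0.000492). The count of 7 was 4 without estrus replicate 4 and 3 with counts scaled from TPM, where 1930 of 12381 and 1674 of 9683 genes were called.

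Of the YAP and TEAD factors and target genes, 7 of 23 tested (27 listed) differed over the stages, against 23.2% of all genes. From proestrus to estrus 4 rose and 0 fell, a share near the 17.1% of all genes, with a median of 0.40. Ccdc80 rose from 273 ± 14.3 to 441 ± 21.3 CPM (SD, n = 3 each; edgeR adjusted p = 0.00239), Asap1 from 49.6 ± 5.28 to 83.3 ± 12.4 CPM (0.0161) and Igfbp3, an IGF carrier, from 25.1 ± 4.79 to 113 ± 51.4 CPM (0.0299). Gadd45a, a stress-response gene, was at 84.2 ± 13.7 CPM in estrus and 19.7 ± 9.27 in diestrus (0.000498). The count of 7 was 4 with limma-voom, 2 with counts scaled from TPM, 3 without proestrus replicate 1, estrus replicate 4 or estrus replicate 5, and 4 without proestrus replicate 2 or 3 or diestrus replicate 3. Over all genes limma-voom called 2604 of 12052 and counts scaled from TPM 1674 of 9683. The fits without 1 of these uteri called 1908 of 12356 to 2218 of 12374. Immediate early genes differed in 4 of 11 tested (16 listed), against 23.2% of all genes. From proestrus to estrus 4 rose and 0 fell, against 17.1% of all genes in either direction, with a median of 0.81. Ier3 rose from 46.1 ± 5.96 to 218 ± 51.3 CPM (6.74e-05), Fosl2 from 67.4 ± 7.97 to 106 ± 13.1 (0.017) and Atf3 from 3.94 ± 0.15 to 12.4 ± 4.23 (0.0151), and Junb was at 18.6 ± 1.36 CPM in estrus and 7.56 ± 1.17 in diestrus (0.00461). The count of 4 was 7 without the filter and 2 with a minimum mean of 50 counts, without estrus replicate 4 or 5 or without diestrus replicate 3. Over all genes these fits called 3334 of 20686, 1844 of 5481, 1930 of 12381, 1908 of 12356 and 2218 of 12374.

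TGF-beta ligands, receptors and target genes differed in 2 of 13 tested (15 listed), a share below that of all genes. Skil, a SMAD repressor, was at 60.4 ± 9.07 CPM in estrus and 28.4 ± 6.28 in diestrus (SD, n = 3 each; edgeR adjusted p = 0.00539). Smad3 and Ltbp1 missed the threshold (F test adjusted p = 0.11 and 0.0933), and the count was 1 with a minimum mean of 50 counts or counts scaled from TPM and 4 without metestrus replicate 7. Over all genes these fits called 1844 of 5481, 1674 of 9683 and 3213 of 12377.

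Fibrillar matrix genes differed in 4 of 13, against 23.2% of all genes. The listed genes of collagens I, III and V were not among them (F test adjusted p of 0.0698 to 0.534). From proestrus to estrus 4 fell and 0 rose, against 17.1% of all genes in either direction, with a median of -0.63, the opposite direction to the 5 matricellular genes that rose over that step. Col6a3 fell from 400 ± 57.5 to 119 ± 11.2 CPM (SD, n = 3 each; edgeR adjusted p = 0.0243). Lox, the collagen cross-linking enzyme, was at 168 ± 26.8 CPM in estrus and 36.8 ± 3.47 in diestrus (3.57e-05). Loxl1, which cross-links elastin, was at 41.3 ± 2.17 and 103 ± 21.9 CPM (0.00234), and Dcn, the proteoglycan decorin, at 3400 ± 301 and 1740 ± 301 CPM (0.00129). The count of 4 was 7 with DESeq2, 8 without the filter and 9 without metestrus replicate 5 or 6. Over all genes these fits called 2850 of 12052, 3334 of 20686, 3428 of 12397 and 3305 of 12399. Without the 3 metestrus uteri, an alternative chosen after seeing the data, the F test counts were 12 for receptors, 7 for immediate early genes, 4 for TGF-beta genes and 11 for fibrillar matrix. The background also rose in that fit, to 4201 of 11770 genes, from 2793 of 12052. Tgfb2 stands in both the YAP and the TGF-beta list and Fn1 in both the receptor and the fibrillar list.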

How the data were processed

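Whole-uterus RNA of 12 mice was read by 3' TagSeq from 100 ng of total RNA, per the labels' protocols, which describe no molecular identifiers, so PCR copies could not be removed. The authors used FastQC, kallisto and DESeq2, per the submitters' processing notes. The transcript set, the kallisto options and the use of strand are not given in the sources used here. The authors deposited, per the file headers, an estimated count and a TPM value for each of 119414 transcripts in each sample. The TPM were relative to effective length and library.

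From the deposited estimated counts, 97.7% of transcripts were matched without version to GENCODE M21 (GRCm38), whose coordinates are printed, summed per gene and rounded. Unmatched transcripts held 0.619% to 0.774% of the counts. Genes were filtered with filterByExpr by stage, scaled with TMM factors (0.908 to 1.05) and fitted in edgeR 4.0.16 (R 4.3.3) with 1 coefficient per stage over all 12 samples. Tests were two-sided and adjusted by Benjamini-Hochberg over 12052 genes, with calls at an adjusted p under 0.05. The SE printed with a log2 fold change is its size divided by the square root of the F statistic of that comparison. It is not an error estimated by the model itself. Samples of a stage are separate uteri per the series' design text. The test was also run on simulated counts with known changes set in estrus only, and the outcome is not given here.

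Alternatives were DESeq2 1.42.0, limma-voom (limma 3.58.1), no filter, a minimum mean of 50 counts, library totals, median-of-ratios factors, counts scaled from TPM, protein-coding transcripts, only the stages compared and leaving out each sample. All 10 genes are described in full, up to 4 genes of each other list (those with the smallest F test p) are named (1 gene of the lists is not reported here), and the 3 nearest genes in pattern are given for each gene called in the F test. The genes, lists and rules were chosen with earlier results of these data known.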

Additional observations from a re-analysis of the deposited data

How the results depend on the processing

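No fold change called in the main comparisons turned direction under the alternatives in which it was computed. Of the 40 fold changes of the 9 genes that were not called, 13 turned sign under at least 1 alternative, those of Thbs1, Thbs2 and Sparc without metestrus replicate 5 among them. The calls of Ccn3 and Postn in the F test, in estrus against proestrus and in diestrus against estrus, and that of Ccn3 in metestrus against estrus, were made in every fit. Over the stages, the 3 genes called became 5 with DESeq2, 8 without a filter and 8 without the 3 metestrus samples (chosen after seeing the data), and 3 to 6 when 1 sample was left out. Over all genes, in the same order, 2850 of 12052, 3334 of 20686 and 4201 of 11770 were called, against 2793 of 12052 in the main fit. Leaving 1 sample out gave 1908 of 12356 to 3428 of 12397. In estrus against proestrus the 5 became 3 with limma-voom, 3 with a minimum mean of 50 counts and 2 with counts scaled from TPM, and 2 to 5 with 1 sample left out. All genes gave, in the same order, 2014 of 12052, 1457 of 5481, 1269 of 9683 and 1103 of 12378 to 2413 of 12377, against 2064 of 12052. In metestrus against estrus the 3 became 1 with counts scaled from TPM, with protein-coding transcripts and with only the 2 stages, and 1 to 4 with 1 sample left out. All genes gave, in the same order, 410 of 9683, 642 of 10724, 299 of 11124 and 339 of 12356 to 1364 of 12397, against 911 of 12052. In diestrus against metestrus the 0 became 1 with DESeq2 and without a filter, and 0 to 1 with 1 sample left out. All genes gave, in the same order, 148 of 11107, 256 of 20686 and 5 of 12367 to 173 of 12399, against 27 of 12052. In proestrus against diestrus the 1 became 2 with DESeq2, 0 with limma-voom, 3 without a filter, 0 with a minimum mean of 50 counts, 0 with counts scaled from TPM, 2 with only the 2 stages and 3 without the metestrus samples, and 0 to 2 with 1 sample left out. All genes gave 1028 of 12052 in the main fit. In the order above they gave 1051 of 12052, 914 of 12052, 1285 of 20686, 670 of 5481 and 539 of 9683. Then followed 1463 of 11300, 1563 of 11770 and 519 of 12411 to 1281 of 12397. In metestrus against proestrus the 0 became 4 with DESeq2 and 6 without a filter, and 0 to 5 with 1 sample left out. All genes gave, in the same order, 679 of 12041, 936 of 20686 and 78 of 12411 to 1080 of 12399, against 519 of 12052. In diestrus against estrus the 5 became 3 with limma-voom, 2 with a minimum mean of 50 counts, 2 with counts scaled from TPM and 3 with protein-coding transcripts, and 2 to 5 with 1 sample left out. All genes gave 2744 of 12052 in the main fit. In the order above they gave 2716 of 12052, 1811 of 5481, 1801 of 9683, 2278 of 10724 and 1913 of 12356 to 3146 of 12397. A minimum mean of 50 counts and counts scaled from TPM leave fewer genes to test (5481 and 9683). The cause of these changes in the counts was not tested for any setting.

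Only estrus and diestrus share 3 replicate numbers. Correlations of the deviations of same-numbered samples were -0.0433, 0.0131 and -0.0166. Such small values cannot exclude a shared batch, and the labels do not say what the numbers mark. With the replicate block, 5 of the 9 genes were called in diestrus against estrus, as without it. No paired analysis was possible for the other pairs of stages because they share at most 1 number.

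Over all genes tested, the counts of calls moved by more than 1.5 times in these cases. The F test gave 2793 calls, 1844 with a minimum mean of 50 counts, 1674 with counts scaled from TPM and 4201 without the metestrus samples. Estrus against proestrus gave 2064, 1269 with counts scaled from TPM and 1103 to 2413 with 1 sample left out. Metestrus against estrus gave 911, 410 with counts scaled from TPM, 299 with only the 2 stages and 339 to 1364 with 1 sample left out. Diestrus against metestrus gave 27, 148 with DESeq2, 14 with limma-voom, 256 without a filter, 0 with counts scaled from TPM, 0 with only the 2 stages and 5 to 173 with 1 sample left out. Proestrus against diestrus gave 1028, 670 with a minimum mean of 50 counts, 539 with counts scaled from TPM, 1563 without the metestrus samples and 519 to 1281 with 1 sample left out. Metestrus against proestrus gave 519, 936 without a filter, 157 with counts scaled from TPM, 42 with only the 2 stages and 78 to 1080 with 1 sample left out. Diestrus against estrus gave 2744, 1811 with a minimum mean of 50 counts and 1801 with counts scaled from TPM.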
